A study of Mus musculus and Homo sapiens with 34 samples.

Results

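RNA was sequenced from mouse 1027B lung organoids treated with the MEK inhibitor trametinib, and the 2 treated libraries were compared with 2 control libraries over all genes. These 4 libraries are all those labelled MEKi or Control for 1027B, of 34 libraries in the series. The wider study examined lineage regulators and pathway inhibitors in lung adenocarcinoma. The control group is labelled Control with no agent or solvent named, the trametinib group received 10 nM trametinib, and a further group of 2 libraries, used here as a comparator, received 20 nM MRTX1133, an inhibitor that acts upstream of MEK. Each group was sampled at 48 hours. All 6 libraries come from 1 organoid line and share the alleles p53frt, Rosa-FSF-CreERT2, Foxa1flox and Foxa2flox. In such alleles FSF marks a stop cassette between FRT sites that Flp recombinase removes, frt and flox mark segments that Flp and Cre can remove, and CreERT2 is a Cre that is active only with tamoxifen. The labels name no tamoxifen treatment for these libraries, so no deletion of Foxa1 or Foxa2 is recorded for them, and the control organoids carried the same alleles. The culture medium held 50% L-WRN conditioned medium, which supplies Wnt3a, R-spondin and Noggin in every group. The labels do not say whether the 2 replicates of a group are separate cultures, so a p-value measures only the spread between these libraries, which may be technical.

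RAS proteins bound to GTP activate RAF kinases, RAF phosphorylates the MEK kinases, and MEK phosphorylates ERK, which carries the signal to the nucleus. ERK raises transcription of immediate early genes and ETS factors and also of its own inhibitors, the Sprouty proteins and the dual-specificity phosphatases, so the mRNA of these genes is a usual readout of pathway activity. In lung adenocarcinoma the pathway drives growth, and tumours of this kind can mix alveolar with gastric and other foregut programmes.

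The total per library ran from 19692517 to 26064130 counts. Of 16553 genes in the table, 14555 had enough counts to be tested. Levels are given as CPM, the counts of a gene scaled to a common library size with TMM factors, always with replicate 1 before replicate 2. Fold changes are log2 values from edgeR's quasi-likelihood test over all 6 libraries, with their standard error (SE). A gene was called, and is said to have risen or fallen, when its Benjamini-Hochberg adjusted p over all tested genes was under 0.05. Trametinib changed 3880 genes, 26.7% of those tested, with 1963 higher (13.5%) and 1917 lower (13.2%). Of these, 1768 differed at least 2-fold. The 2 groups did not overlap in 67.1% of all tested genes and in all 3880 called genes, so a gap between groups adds nothing to a call. A share of called members near 26.7% says nothing about a list. Such shares, 22.2% to 30%, were found in this fit for the RAS to ERK, G1, hepatic and ribosome biogenesis lists. The MHC class I, epithelial and mesenchymal, WNT and NOTCH lists also had such shares. The median log2 fold change over all tested genes was -0.01. Replicates differed by more than counting noise in each group (chi-square per degree of freedom 33.2 to 38). The share of counts from mitochondrially encoded genes followed the replicate number. In control, trametinib and MRTX1133 it was 3.31%, 3.44% and 3.49% for replicate 1 and 1.5%, 2.0% and 1.69% for replicate 2. Within each replicate number it was somewhat higher with either inhibitor than in control. Same-numbered libraries deviated together across genes. With the replicate number as a block, trametinib changed 6540 genes (44.9%), 3192 of them higher (21.9%) and 3348 lower (23%). Without trametinib replicate 1 the number of called genes was 1336, and without control replicate 1 or 2 it was 2368 and 2096.

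Genes that read out ERK activity fell with trametinib. Of 20 tested members of a list of 21 ERK feedback and target genes, 16 fell, 1 rose and 3 were not called, and the list median was -1.55 on the log2 scale. Dusp6, the phosphatase that removes ERK's activating phosphates, was at 246 and 296 CPM in controls and 30.4 and 47.5 with trametinib, a log2 fold change of -2.80 (SE 0.22, adjusted p = 0.00083). Etv4, an ETS factor downstream of ERK, was at 51.1 and 56.9 CPM in controls and 3.56 and 5.60 with trametinib (log2 fold change -3.56, SE 0.23, adjusted p = 0.000563). As in every called gene, the groups of both did not overlap, and their gap was several times the spread of the replicates. Spry4, a Sprouty inhibitor of the pathway, went from 12.4 and 14.5 CPM to 0.668 and 0.513 (log2 fold change -4.49, SE 0.41, adjusted p = 0.00114). Fosl1, the AP-1 subunit FRA1, went from 48.5 and 56 CPM to 2.0 and 3.17 (log2 fold change -4.34, SE 0.26, adjusted p = 0.000469). Egr1, an immediate early transcription factor, went from 19.9 and 16.1 CPM to 2.09 and 2.75 (log2 fold change -2.89, SE 0.27, adjusted p = 0.00119). In all 3 the groups were far apart and the 2 treated libraries were close to each other. For Fosl1, 57.2% of the annotated exon bases lie under a gene on the opposite strand, and since the strand setting of the authors' counting is not given in the sources used here, reads of the pair cannot be told apart. In bulk RNA, fewer cells that express a gene and less of its RNA per cell cannot be told apart.

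The fall was not shared by every member. Ccnd1, which encodes cyclin D1 and carries ERK signalling into the cell cycle, was at 465 and 454 CPM in controls and 246 and 397 with trametinib (adjusted p = 0.117, 0.0161 with the replicate block). The gap in Ccnd1 came mainly from the first treated library. Spred1 and Spred3, inhibitors of RAS activation named here after their values were seen, had log2 fold changes of -0.22 and -0.26 and were not called, although with the block the adjusted p of Spred1 was 0.0263. Epha4, an ephrin receptor also named for its value, was the one member that rose, from 76 and 68.2 CPM to 107 and 107 (log2 fold change 0.57, SE 0.11, adjusted p = 0.0132). The number of members that rose was 1 without control replicate 1 and 0 without control replicate 2, trametinib replicate 1 or trametinib replicate 2.

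**Figure D1:**
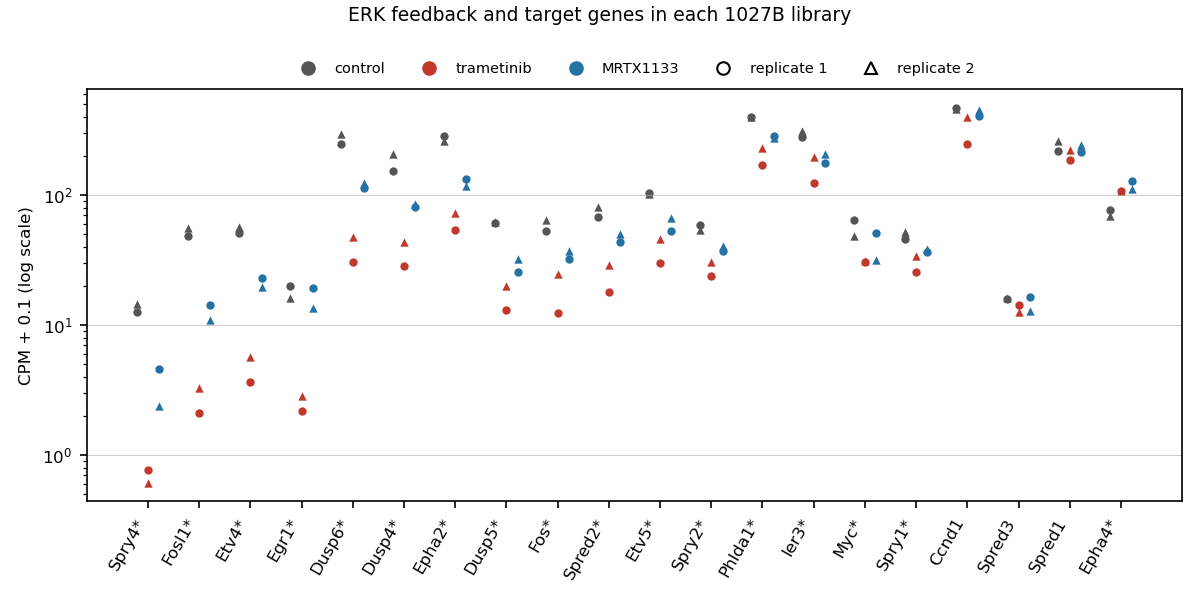
ERK feedback and target genes (horizontal axis) against expression (vertical axis, CPM + 0.1 on a log scale) in each of the 6 1027B libraries, with colour for treatment, circles for replicate 1, triangles for replicate 2 and an asterisk for genes called with trametinib. Dusp6 lies at 246 and 296 CPM in controls and 30.4 and 47.5 with trametinib, and its MRTX1133 libraries lie between, at 114 and 123.

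The promoters of a pair of these genes are shown. Dusp6 is the standard readout of ERK activity. Epha2, a receptor tyrosine kinase in the list, fell from 283 and 262 CPM to 53.7 and 72.6 and was chosen after its values were seen. The Epha2 promoter held the only match to a cAMP response element among those searched, which were of fallen members. Sequences are from RefSeq on GRCm38.p6, 250 bases before to 50 after the start of transcription, 5′ to 3′ on the gene's strand, with capitals for the matched motif. Dusp6 is at chr10:99262981-99263280, plus strand, and Epha2 at chr4:141300971-141301270, plus strand.
Dusp6: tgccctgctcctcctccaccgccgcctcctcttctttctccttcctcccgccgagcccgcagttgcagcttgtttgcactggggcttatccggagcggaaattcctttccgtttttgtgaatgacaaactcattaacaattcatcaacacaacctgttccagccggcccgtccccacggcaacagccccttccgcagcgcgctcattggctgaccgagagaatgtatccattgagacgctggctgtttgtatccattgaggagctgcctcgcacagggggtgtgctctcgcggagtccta
Epha2: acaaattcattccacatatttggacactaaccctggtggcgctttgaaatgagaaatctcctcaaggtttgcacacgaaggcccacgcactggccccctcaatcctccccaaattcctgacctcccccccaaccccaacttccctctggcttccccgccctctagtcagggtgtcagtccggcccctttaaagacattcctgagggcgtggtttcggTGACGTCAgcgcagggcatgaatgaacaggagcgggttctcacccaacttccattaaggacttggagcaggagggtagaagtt
Of the 16 members that fell, 9 had 10 promoters in the RefSeq table. The AP-1 motif TGANTCA and the ETS motif CCGGAAGT, searched on both strands, had no match in these 10 windows, against 5.46% and 7.87% of the 13290 promoters of tested genes. The motif TGACGTCA matched 1 of the 10, against 3% of the promoters of tested genes. A match or its absence describes these windows only.

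The genes of the pathway itself were called about as often as all genes. Of 21 genes for RAS, RAF, MEK, ERK and their adaptors, 1 rose and 4 fell (23.8%, against 26.7% of all tested genes), with a median of -0.13. Map2k1, which encodes MEK1, a target of trametinib, fell from 222 and 248 CPM to 109 and 142 (log2 fold change -0.90, SE 0.15, adjusted p = 0.00715). Ksr1, a scaffold that holds RAF, MEK and ERK together, fell from 39.6 and 49.9 CPM to 17.2 and 18.1 (log2 fold change -1.34, SE 0.15, adjusted p = 0.00204). The ERK substrate kinase Rps6ka1 had a log2 fold change of -0.57 (SE 0.16, adjusted p = 0.0381), a call lost without control replicate 2 (adjusted p = 0.179) or trametinib replicate 1 (0.206) and, narrowly, without control replicate 1 (0.0568). With the block 9 of the 21 were called, against 44.9% of all genes. Without control replicate 1, control replicate 2, trametinib replicate 1 and trametinib replicate 2 the calls were 4, 3, 2 and 4.

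Receptor genes upstream of RAS moved in both directions. Of 11 tested receptor tyrosine kinase genes, 3 rose and 2 fell (45.5%, against 26.7% of all tested genes). With the block 44.9% of all genes were called. The 2 genes of the FGF receptor family named by the largest change went opposite ways. Fgfr3 rose from 10.4 and 14.1 CPM to 73.2 and 63.1 (log2 fold change 2.48, SE 0.18, adjusted p = 0.000653), while Fgfr4 fell from 14.8 and 9.32 CPM to 0.712 and 0.653 (log2 fold change -4.13, SE 0.35, adjusted p = 0.000958). Both calls held without any one library. Igf1r, the receptor for IGF1, went from 26.2 and 25.8 CPM to 38.6 and 46.6 (log2 fold change 0.71, SE 0.14, adjusted p = 0.0126), and Erbb3, the kinase-impaired partner of EGFR and ERBB2, from 306 and 399 to 208 and 239 (log2 fold change -0.66, SE 0.17, adjusted p = 0.0294). Both calls were lost when some single libraries were left out. Igf1r had an adjusted p of 0.0515, 0.0539 and 0.057 without control replicate 1, control replicate 2 and trametinib replicate 2, and Erbb3 had 0.147, 0.164 and 0.0616 without control replicate 2, trametinib replicate 1 and trametinib replicate 2. Egfr was at 16.4 and 13.8 CPM in controls and 21 and 18 with trametinib, and Erbb2 at 87 and 91.5 in controls and 105 and 105 with trametinib, and neither was called. With the block the adjusted p of Erbb2 was 0.0255, and 8 of the 11 receptors were called, and the number was 3, 3, 3 and 2 without control replicate 1, control replicate 2, trametinib replicate 1 and trametinib replicate 2.

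Without the block, ligands of the EGFR family fell or were not called, with 1 exception. Of 7 tested ligand genes, 3 fell, 1 rose and 3 were not called. With the block 4 fell and 2 rose, Egf and Nrg1, against 44.9% of all genes called. Areg, amphiregulin, fell from 70.4 and 77.3 CPM to 13.1 and 21.7 (log2 fold change -2.09, SE 0.23, adjusted p = 0.00196). Ereg, epiregulin, fell from 32.9 and 30.9 CPM to 7.52 and 9.0 (log2 fold change -1.95, SE 0.19, adjusted p = 0.00136). Tgfa fell from 118 and 145 CPM to 67.2 and 79.7 (log2 fold change -0.84, SE 0.14, adjusted p = 0.00763), with an adjusted p of 0.0581 without trametinib replicate 1. As with every called gene, the treated and control libraries of these 3 ligands did not overlap. Hbegf, a further ligand, was at 70.8 and 71.9 CPM in controls and 55.4 and 53.3 with trametinib and was not called (adjusted p = 0.0676, 0.0141 with the block). Egf was the member that rose without the block, at under 4 CPM in each library. The number of ligands called was 3, 4, 2 and 3 without control replicate 1, control replicate 2, trametinib replicate 1 and trametinib replicate 2.

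Mitotic genes fell together. Of 20 tested genes for mitosis, 17 fell and none rose, with a median of -1.39. Their levels summed to 2500.0 and 3328 CPM in controls and 798 and 1393 with trametinib. In each group replicate 2 was the higher library. Bub1, a spindle checkpoint kinase, went from 112 and 138 CPM to 29.9 and 42.6 (log2 fold change -1.79, SE 0.23, adjusted p = 0.00338). Ccnb1, cyclin B1, went from 84.9 and 98.7 CPM to 22.6 and 32.8 (log2 fold change -1.73, SE 0.23, adjusted p = 0.00384). Top2a, the topoisomerase that untangles replicated DNA, went from 351 and 455 CPM to 86.5 and 173 (log2 fold change -1.64, SE 0.37, adjusted p = 0.02). All 3 fell in both replicate numbers, and as in every called gene the groups did not overlap. Mki67, the proliferation antigen Ki-67, was at 357 and 481 CPM in controls and 106 and 234 with trametinib, where the second treated library was well above the first (log2 fold change -1.30, adjusted p = 0.0695). With the block its adjusted p was 0.000163, and its log2 fold change was -0.84 and -1.98 without trametinib replicate 1 and 2. Ube2c, a ubiquitin-conjugating enzyme of mitotic exit, had a log2 fold change of -1.76 (SE 0.33, adjusted p = 0.0113). These counts depended on single libraries in both groups, as did the number called over all genes. The number of mitotic genes called was 15, 5, 2 and 20 without control replicate 1, control replicate 2, trametinib replicate 1 and trametinib replicate 2, although with the block it was 20. Without trametinib replicate 1 the adjusted p of Top2a was 0.081 and that of Ube2c 0.062, and without control replicate 2 that of Top2a was 0.0807.

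Genes of DNA replication fell in part. Of 23 tested, 11 fell and none rose, with a median of -0.58, and with the block 20 fell, against 23% of all genes. Cdc6, which loads the replicative helicase, went from 27.6 and 26.4 CPM to 11.7 and 15.3 (log2 fold change -1.0, SE 0.16, adjusted p = 0.00667). Pcna, the sliding clamp of DNA polymerase, went from 369 and 359 CPM to 211 and 262 (log2 fold change -0.62, SE 0.13, adjusted p = 0.0148), and its adjusted p was 0.0582, 0.0564 and 0.0853 without control replicate 1, control replicate 2 and trametinib replicate 1. Mcm2, a helicase subunit, was at 121 and 108 CPM in controls and 73.9 and 99.3 with trametinib and was not called (adjusted p = 0.0944, 0.0258 with the block). Rrm2, a subunit of ribonucleotide reductase, was at 80.2 and 81.3 CPM in controls and 33.5 and 58.3 with trametinib (adjusted p = 0.0604, 0.00262 with the block). For Mcm2 and Rrm2 the first treated library was clearly low while the second was nearer the control libraries. The number of replication genes called was 4, 2, 1 and 15 without control replicate 1, control replicate 2, trametinib replicate 1 and trametinib replicate 2.

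Cell cycle promoters are shown for Cdc6, Bub1 and Ube2c as called members of the replication and mitosis lists that hold at least 1 of the motifs counted below, chosen after the matches were seen. They are at chr11:98907901-98908200, plus strand, chr2:127831810-127832109, minus strand and chr2:164769679-164769978, plus strand. Capitals mark the E2F motif TTTNNCGC in Cdc6, the NF-Y motif CCAAT in Bub1, and CCAAT with the cell cycle homology region TTTGAA in Ube2c, on either strand.
Cdc6: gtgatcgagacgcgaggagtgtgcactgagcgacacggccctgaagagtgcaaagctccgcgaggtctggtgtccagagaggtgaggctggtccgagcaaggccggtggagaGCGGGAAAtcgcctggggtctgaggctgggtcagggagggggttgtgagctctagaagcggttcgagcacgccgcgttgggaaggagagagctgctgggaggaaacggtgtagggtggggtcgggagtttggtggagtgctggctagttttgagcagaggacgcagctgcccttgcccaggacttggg
Bub1: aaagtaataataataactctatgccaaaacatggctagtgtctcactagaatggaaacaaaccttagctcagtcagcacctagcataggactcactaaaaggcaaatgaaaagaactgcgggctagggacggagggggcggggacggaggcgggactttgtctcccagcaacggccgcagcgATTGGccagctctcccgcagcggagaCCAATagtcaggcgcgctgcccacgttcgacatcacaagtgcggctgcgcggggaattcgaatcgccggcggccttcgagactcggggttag
Ube2c: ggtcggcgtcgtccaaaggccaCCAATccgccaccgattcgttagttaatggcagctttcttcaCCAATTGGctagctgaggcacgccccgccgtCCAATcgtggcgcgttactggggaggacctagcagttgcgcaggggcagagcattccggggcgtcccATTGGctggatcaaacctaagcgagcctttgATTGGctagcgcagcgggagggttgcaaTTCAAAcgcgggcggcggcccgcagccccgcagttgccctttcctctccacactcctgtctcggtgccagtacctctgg
Ube2c holds 6 CCAAT matches, Bub1 holds 2, and Cdc6 holds 1 E2F match. Among the mitotic genes that fell, 12 genes had 12 promoters, of which 11 (91.7%) held CCAAT and 8 (66.7%) held TTTGAA, against 37.4% and 12.1% of the promoters of all tested genes. Among the replication genes that fell, 9 genes had 11 promoters, of which 6 (54.5%) held TTTNNCGC, against 8.14%. These shares describe promoters of genes chosen for their function.

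**Figure D2:**
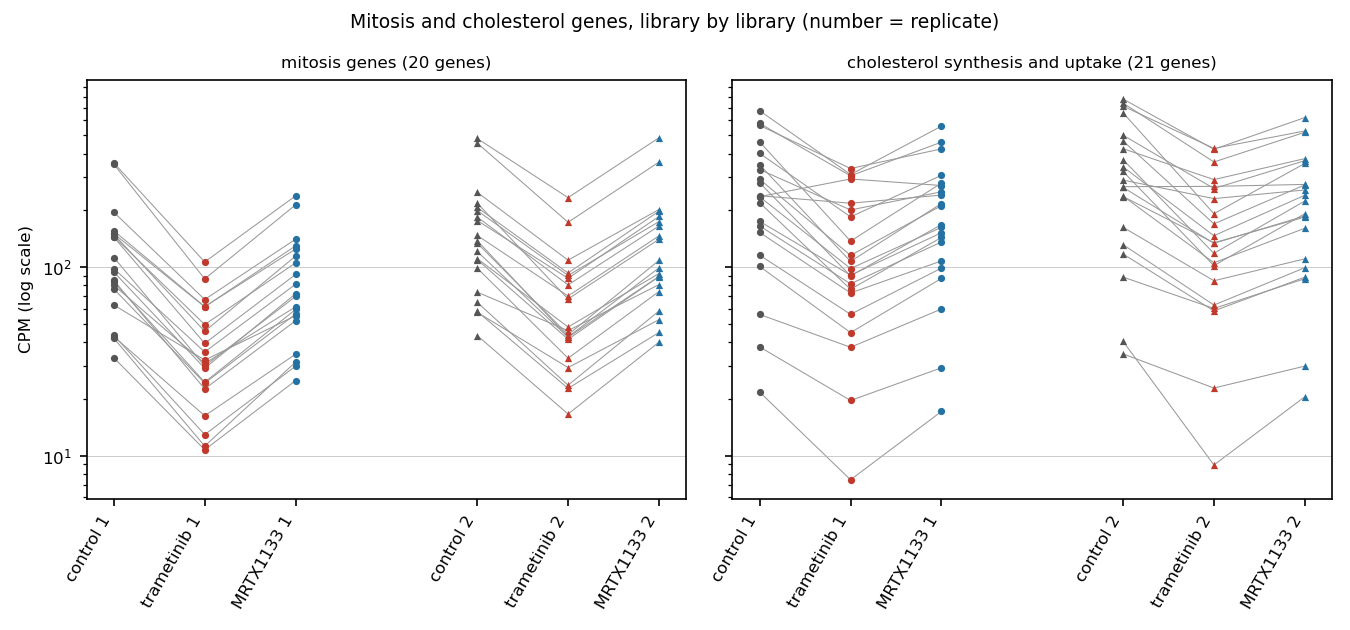
Mitosis genes and genes of cholesterol synthesis and uptake, each gene a line over the 3 treatments within replicate 1 (circles) and within replicate 2 (triangles) of the 1027B libraries (horizontal axis, with colour for treatment) against expression (vertical axis, CPM on a log scale). In the mitosis genes the lines drop in both trametinib libraries, with sums of 798 and 1393 CPM against 2500.0 and 3328 in controls.

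Genes that control G1 were called about as often as all genes. Of 13 tested, 2 rose and 1 fell (23.1%, against 26.7%). Cdkn2b and Cdkn2a, which encode INK4 inhibitors of CDK4 and CDK6 (Cdkn2a also ARF), rose from 58 and 60.5 CPM to 90.5 and 103 (log2 fold change 0.71, SE 0.13, adjusted p = 0.0103) and from 179 and 185 to 254 and 279 (log2 fold change 0.55, SE 0.10, adjusted p = 0.0106). Cdkn2d, another INK4 gene, fell from 21.7 and 29.5 CPM to 10.1 and 12.1 (log2 fold change -1.21, SE 0.30, adjusted p = 0.0274). The 3 calls were each lost without at least 1 library. The adjusted p without control replicate 1 was 0.0519 for Cdkn2b and 0.0552 for Cdkn2a, and that for Cdkn2a without trametinib replicate 2 was 0.0513. For Cdkn2d it was 0.127, 0.151 and 0.0689 without control replicate 2, trametinib replicate 1 and trametinib replicate 2. Cdkn1a, the CDK inhibitor p21, was at 315 and 551 CPM in controls and 194 and 273 with trametinib (adjusted p = 0.0863, 0.000105 with the block), with a wide gap between the control replicates. Cdkn1b, the CDK inhibitor p27, was at 172 and 245 CPM in controls and 129.9 and 172 with trametinib and was not called (adjusted p = 0.178, 0.000877 with the block). With the block 3 of the 13 were higher and 7 lower, against 44.9% of all genes called.

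Genes of the cholesterol pathway fell. Of 21 tested genes for cholesterol synthesis and uptake, 17 fell, none rose and 4 were not called, with a median of -1.05. Sqle, squalene epoxidase of the committed sterol branch, was at 401 and 501 CPM in controls and 185 and 261 with trametinib (log2 fold change -1.02, SE 0.20, adjusted p = 0.0123). Insig1, which retains the SREBP regulators in the endoplasmic reticulum, was at 349 and 658 CPM in controls and 107 and 192 with trametinib (log2 fold change -1.75, SE 0.41, adjusted p = 0.0215). Lss, lanosterol synthase, was at 219 and 372 CPM in controls and 76.2 and 118 with trametinib (log2 fold change -1.6, SE 0.34, adjusted p = 0.0159). In these 3 genes replicate 2 was the higher library in both groups, and their calls were lost without control replicate 2 (adjusted p = 0.0606 for Sqle, 0.0912 for Insig1 and 0.0665 for Lss) or trametinib replicate 1 (0.0646, 0.116 and 0.0952). The members not called included Srebf1, Dhcr7 and Stard4, whose adjusted p with the block was 0.0339, 0.000792 and 0.000274. Srebf1 encodes an SREBP regulator that also drives fatty acid synthesis, and Dhcr7 encodes a late reductase of the pathway. The number of members called was 17, 11, 9 and 17 without control replicate 1, control replicate 2, trametinib replicate 1 and trametinib replicate 2.

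Promoters of Insig1 (chr5:28071162-28071461, plus strand) and Lss (chr10:76531355-76531654, plus strand) are shown as members of the list with a large fall and a CCAAT match, in capitals on either strand.
Insig1: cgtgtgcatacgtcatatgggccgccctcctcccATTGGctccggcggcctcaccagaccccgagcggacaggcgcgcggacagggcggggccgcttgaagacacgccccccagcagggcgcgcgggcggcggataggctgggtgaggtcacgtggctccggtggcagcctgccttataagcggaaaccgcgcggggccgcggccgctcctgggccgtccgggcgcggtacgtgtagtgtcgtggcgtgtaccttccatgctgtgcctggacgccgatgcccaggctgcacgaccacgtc
Lss: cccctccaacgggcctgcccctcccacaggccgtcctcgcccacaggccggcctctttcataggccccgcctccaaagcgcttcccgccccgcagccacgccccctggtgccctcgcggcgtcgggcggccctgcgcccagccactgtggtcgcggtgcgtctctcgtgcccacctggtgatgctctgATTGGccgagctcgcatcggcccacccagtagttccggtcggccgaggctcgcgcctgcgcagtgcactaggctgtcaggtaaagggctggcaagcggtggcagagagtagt
All 11 promoters of the 11 fallen members in the RefSeq table held CCAAT (100%), against 37.4% of the promoters of tested genes. The sterol regulatory motif TCACNCCAC was in 1 of the 11, against 1.13%. These genes too were chosen for their function, so the shares describe their promoters only.

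Many amino acid genes driven by the stress factor ATF4 also fell. Of 15 tested ATF4 targets, 9 fell and none rose, with a median of -0.76, and with the block 14 fell, against 23% of all genes. Slc7a11, the cystine transporter, went from 281 and 347 CPM to 36.2 and 43.9 (log2 fold change -2.97, SE 0.16, adjusted p = 0.000434). Slc7a5, a transporter of large neutral amino acids, went from 135 and 141 CPM to 26.2 and 42.7 (log2 fold change -2.0, SE 0.26, adjusted p = 0.00355). Psat1, an enzyme of serine synthesis, went from 603 and 707 CPM to 133 and 201 (log2 fold change -1.97, SE 0.26, adjusted p = 0.0034). Mthfd2, a mitochondrial folate enzyme, went from 107 and 134 CPM to 30.7 and 43.2 (log2 fold change -1.71, SE 0.21, adjusted p = 0.00272), and Asns, asparagine synthetase, from 199 and 209.6 to 72.4 and 82.9 (log2 fold change -1.39, SE 0.15, adjusted p = 0.00165). The groups were well apart in these 5 genes, and none of the 5 calls was lost without any one library. Ddit3, the stress factor CHOP, was at 16.4 and 15.9 CPM in controls and 10.1 and 12.3 with trametinib and was not called (adjusted p = 0.0776, 0.0192 with the block).

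Glycolysis genes had calls mostly toward lower levels. Of 17 tested, 5 fell and 1 rose (35.3%, against 26.7% of all genes), with a median of -0.42. The fallen members were Slc2a1, Hk1, Hk2, Pfkp and Ldha, and the riser was Ldhb at under 5 CPM in each library. Hk2, hexokinase 2, was at 326 and 496 CPM in controls and 162 and 228 with trametinib (log2 fold change -1.08, SE 0.28, adjusted p = 0.0303). Slc2a1, the glucose transporter GLUT1, was at 395 and 484 CPM in controls and 220.4 and 308 with trametinib (log2 fold change -0.73, SE 0.20, adjusted p = 0.0371). Replicate 2 was the higher library in both groups for these genes, and the control replicates were themselves well apart. Both calls were lost without control replicate 2 (adjusted p = 0.142 for Hk2 and 0.168 for Slc2a1) and without trametinib replicate 1 (0.165 and 0.182), and that of Slc2a1 also without control replicate 1 (0.0554). With the block 16 of the 17 were called, against 44.9% of all genes, 14 of them lower, and the number called was 4, 1, 1 and 7 without control replicate 1, control replicate 2, trametinib replicate 1 and trametinib replicate 2.

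Among ribosome biogenesis genes the called changes were small falls. Of 20 tested, 5 fell and none rose (25%, near the 26.7% of all genes), with a median of -0.33. With the block 15 were called, all lower, against 44.9% of all genes called and 23% lower. Npm1, nucleophosmin, went from 687 and 724 CPM to 431 and 442 (log2 fold change -0.69, SE 0.10, adjusted p = 0.00451). Fbl, the methyltransferase fibrillarin, went from 77 and 78.7 CPM to 48.2 and 49.2 (log2 fold change -0.68, SE 0.09, adjusted p = 0.00413), and Mybbp1a, a nucleolar protein, from 198 and 203 to 127 and 127 (log2 fold change -0.66, SE 0.09, adjusted p = 0.00397). These genes had close replicates. Nop56, a core protein of box C/D particles, was at 205 and 176 CPM in controls and 123 and 111 with trametinib (log2 fold change -0.70, SE 0.16, adjusted p = 0.0205), a call lost without control replicate 1 (adjusted p = 0.0856), trametinib replicate 1 (0.08) or trametinib replicate 2 (0.0904). The list had 4, 5, 3 and 4 calls without control replicate 1, control replicate 2, trametinib replicate 1 and trametinib replicate 2.

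Lysosomal and fatty acid oxidation genes rose in part. Of 27 tested genes for lysosomes and autophagy, 11 rose and none fell, with a median of 0.46. With the block 19 rose and 1 fell, against 21.9% and 23% of all genes. Lipa, the lysosomal acid lipase, went from 54.4 and 90.1 CPM to 236 and 183 (log2 fold change 1.54, SE 0.24, adjusted p = 0.00587). Lamp1, an abundant lysosomal membrane protein, went from 640.3 and 627 CPM to 1027 and 974 (log2 fold change 0.66, SE 0.11, adjusted p = 0.00682). In Lipa and Lamp1, as in every called gene, the 2 groups did not overlap. Sqstm1, the autophagy receptor p62, went from 239 and 224 CPM to 336 and 311 (log2 fold change 0.48, SE 0.10, adjusted p = 0.0137), with an adjusted p of 0.0658 without control replicate 2 and 0.0905 without trametinib replicate 1. Ctsd, cathepsin D, was at 309 and 376 CPM in controls and 361 and 434 with trametinib and was not called (adjusted p = 0.358, 0.0229 with the block). The number of lysosomal genes called was 7, 7, 3 and 10 without control replicate 1, control replicate 2, trametinib replicate 1 and trametinib replicate 2. Of 14 tested genes of fatty acid oxidation and PPAR signalling, 6 rose and 2 fell. Cpt1a, which admits long-chain fatty acids to mitochondria, rose from 53 and 49.6 CPM to 119.8 and 92.9 (log2 fold change 1.05, SE 0.14, adjusted p = 0.00386), and Slc25a20, the carnitine carrier, from 17.3 and 14.7 to 35.7 and 37.8 (log2 fold change 1.20, SE 0.15, adjusted p = 0.00303). Angptl4, a PPAR target that inhibits lipoprotein lipase, fell from 72.8 and 99.6 CPM to 36.6 and 55.1 (log2 fold change -0.91, SE 0.22, adjusted p = 0.0255), and its adjusted p was 0.123 without control replicate 2 and 0.116 without trametinib replicate 1. The number called in this list was 6, 4, 3 and 6 when the same 4 libraries were left out in turn, in the same order.

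Gastric markers split into genes that fell and genes that rose. Of 16 listed, 12 were tested, of which 6 fell, 4 rose and 2 were not called, with a median of -1.19. The genes that fell belong to surface mucous cells of the stomach. Gkn2, a gastrokine of surface cells, went from 806 and 617 CPM to 15.1 and 33.2 (log2 fold change -4.88, SE 0.41, adjusted p = 0.000958), and was lower still, at a log2 fold change of -5.56, without trametinib replicate 2. Gkn1, its partner gastrokine, went from 6.63 and 8.23 CPM to 0.0890 and 0.886 (log2 fold change -3.93, SE 0.69, adjusted p = 0.00891), with log2 fold changes of -3.06 and -6.29 without trametinib replicate 1 and 2. Tff1, a trefoil peptide secreted with mucus, went from 2790.3 and 1889.7 CPM to 120.3 and 199 (log2 fold change -3.87, SE 0.33, adjusted p = 0.000979), and 31.4% of its exon bases lie under a gene on the opposite strand. The surface cell genes Muc5ac, Anxa10 and Vsig1 also fell. The genes that rose encode digestive proteases and gastric intrinsic factor. This grouping of fallen and risen genes was made after their values were seen. Cym, the milk-clotting protease chymosin, went from 22.6 and 13.4 CPM to 7158 and 2959.9 (log2 fold change 8.13, SE 0.78, adjusted p = 0.00136), and its log2 fold change was 7.36 without trametinib replicate 1. Cblif, gastric intrinsic factor, went from 0.339 and 0.162 CPM to 17.9 and 14.5 (log2 fold change 5.96, SE 0.35, adjusted p = 0.000462), and its log2 fold change was 6.59 without control replicate 1. Pga5, a pepsinogen, had 0 and 0 counts in controls and 38 and 33 with trametinib, at least 21.1-fold higher against a floor of 3 counts over the control group. The other riser was Pgc, progastricsin, from 5.37 and 4.06 CPM to 13 and 9.23, named like Pga5 after its values were seen. Ctse, cathepsin E, was at 262 and 198 CPM in controls and 279 and 219.8 with trametinib and was not called. Without trametinib replicate 1 the number of gastric genes called was 6.

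Many alveolar type 1 markers rose. Of 16 listed, 14 were tested, of which 8 rose, 1 fell and 5 were not called, with a median of 1.37. Ager, the RAGE receptor and the best known marker of these flat gas exchange cells, was at 25.1 and 116 CPM in controls and 770.0 and 1286 with trametinib (log2 fold change 3.87, SE 0.73, adjusted p = 0.0109). The control libraries of Ager were themselves several times apart, and its log2 fold change was 3.15 without control replicate 1 and 5.38 without control replicate 2. Col4a3 and Col4a4, chains of the basement membrane collagen that these cells make, rose from 1.99 and 6.99 CPM to 47.2 and 54.8 (log2 fold change 3.52, SE 0.51, adjusted p = 0.00451) and from 4.84 and 7.04 to 59 and 61.3 (log2 fold change 3.34, SE 0.19, adjusted p = 0.000434). Rtkn2, which encodes rhotekin 2, rose from 5.13 and 9.70 CPM to 33 and 44 (log2 fold change 2.38, SE 0.32, adjusted p = 0.00379). Hopx, a homeodomain cofactor, went from 30.4 and 63.9 CPM to 114 and 143 (log2 fold change 1.45, SE 0.40, adjusted p = 0.0383), a call lost without control replicate 1 (adjusted p = 0.117), trametinib replicate 1 (0.098) or trametinib replicate 2 (0.126), and with a log2 fold change of 2.11 without control replicate 2. In the collagen pair the control libraries were under 8 CPM and the treated ones over 47 CPM. The log2 fold change of Col4a3 was 2.87 without control replicate 1 and 4.71 without control replicate 2. Pdpn, podoplanin, was at 2.03 and 1.73 CPM in controls and 3.38 and 4.38 with trametinib and was not called (adjusted p = 0.123, 0.0497 with the block). The member that fell was Aqp5, a water channel, from 1125 and 1102 CPM to 733 and 857, named after its values were seen.

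Alveolar type 2 markers went both ways. Of 16 tested, 5 rose, 6 fell and 5 were not called, with a median of 0.03. The surfactant protein genes themselves divided. Sftpc rose from 26.8 and 105 CPM to 1137 and 978 (log2 fold change 4.01, SE 0.60, adjusted p = 0.00507), with log2 fold changes of 3.34 and 5.33 without control replicate 1 and 2. Sftpb fell from 5948 and 9849 CPM to 649 and 1333 (log2 fold change -2.99, SE 0.44, adjusted p = 0.00491), with -3.61 without trametinib replicate 2. The control and treated libraries of both genes were far apart, and the direction was opposite. Sftpa1, which binds microbes in the surfactant, fell from 59.7 and 106 CPM to 2.67 and 9.56 (log2 fold change -3.76, SE 0.73, adjusted p = 0.012). Its log2 fold change was -4.95 without trametinib replicate 2 and -3.11 without trametinib replicate 1, where the call was lost (adjusted p = 0.06). Lamp3, a lamellar body protein, fell from 208 and 155 CPM to 17.6 and 18.3 (log2 fold change -3.34, SE 0.16, adjusted p = 0.000379), with close replicates in both groups. Hc, complement C5, rose from 2.91 and 6.34 CPM to 84.4 and 50.3 (log2 fold change 3.87, SE 0.51, adjusted p = 0.00355), with 4.56 without control replicate 2. The number of type 2 markers called was 10, 8, 7 and 11 without control replicate 1, control replicate 2, trametinib replicate 1 and trametinib replicate 2, and the median became -0.41 over members with at least 10 counts in every library.

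Some club cell genes rose from near 0. Of 12 airway markers listed, 8 were tested, of which 4 rose, 1 fell and 3 were not called. Cyp2f2, the cytochrome P450 typical of mouse club cells, was at 0.339 and 1.62 CPM in controls and 252 and 106 with trametinib (log2 fold change 7.54, SE 0.73, adjusted p = 0.00137). Its log2 fold change was 6.78 and 9.05 without control replicate 1 and 2 and 6.79 without trametinib replicate 1. Cbr2, a carbonyl reductase of the airway, was at 0.436 and 5.47 CPM in controls and 106 and 68.4 with trametinib (log2 fold change 4.92, SE 0.76, adjusted p = 0.00582), with 3.99 and 7.65 without control replicate 1 and 2. The treated libraries were far above the control ones in both genes, although the 2 control libraries differed several-fold. Scgb1a1, the club cell secretory protein, was at 0.726 and 5.74 CPM in controls and 29.7 and 43.4 with trametinib (log2 fold change 3.52, SE 0.98, adjusted p = 0.0382). That call was lost without control replicate 1 (log2 fold change 2.67, adjusted p = 0.108), trametinib replicate 1 (adjusted p = 0.0962) or trametinib replicate 2 (0.104), and the fold was 5.67 on the log2 scale without control replicate 2. Scgb3a2, another secretoglobin, was at 0 and 0.433 CPM in controls and 0.623 and 2.43 with trametinib and was not called (log2 fold change 2.84, adjusted p = 0.112, 0.00959 with the block). Its counts were 0 and 8 in controls, so the size of the change cannot be resolved. Muc5b, a secreted airway mucin, fell from 576 and 579 CPM to 373 and 326 (log2 fold change -0.72, SE 0.21, adjusted p = 0.047), a call lost without control replicate 1 (adjusted p = 0.119), control replicate 2 (0.145), trametinib replicate 1 (0.13) or trametinib replicate 2 (0.173). The list had 3, 3, 2 and 2 calls when these libraries were left out in that order. Krt5, a basal cell marker, had too few counts to be tested, and Foxj1 and Trp63, of ciliated and basal cells, were not analysed here.

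**Figure D3:**
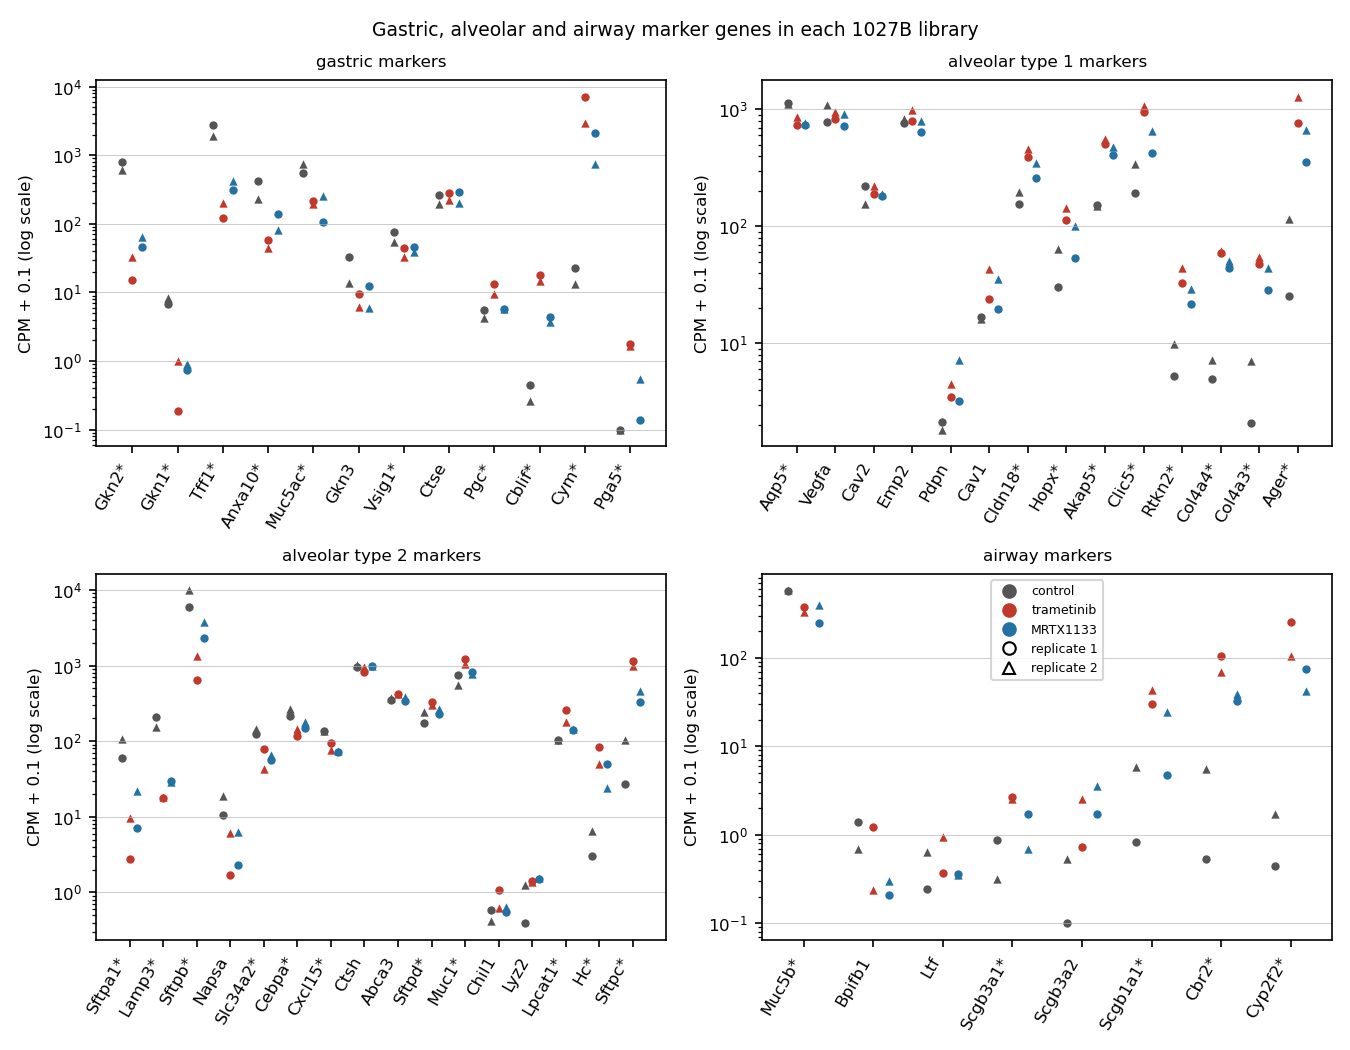
Gastric, alveolar type 1, alveolar type 2 and airway marker genes (horizontal axes) against expression (vertical axes, CPM + 0.1 on a log scale) in each of the 6 1027B libraries, with colour for treatment, circles for replicate 1, triangles for replicate 2 and an asterisk for genes called with trametinib. Within the gastric panel Gkn2 falls from 806 and 617 to 15.1 and 33.2 CPM while Cym rises from 22.6 and 13.4 to 7158 and 2959.9 CPM.

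Among regulators of these identities, 9 of 20 tested lineage transcription factors (25 listed) fell and 2 rose, with a median of -0.45. Nkx2-1, the lung lineage factor, went from 312 and 316 CPM to 413 and 431 (log2 fold change 0.43, SE 0.09, adjusted p = 0.0178), a call lost without any one of the 4 libraries (adjusted p = 0.0794, 0.0637, 0.0754 and 0.0739 without control replicate 1 and 2 and trametinib replicate 1 and 2). Hnf4a, a factor of the gut and liver, went from 446 and 471 CPM to 254 and 200.4 (log2 fold change -1.01, SE 0.15, adjusted p = 0.00535). The floxed genes were expressed. Foxa2 rose from 126 and 118 CPM to 171 and 169.7 (log2 fold change 0.48, SE 0.09, adjusted p = 0.0112), with an adjusted p of 0.0546 without control replicate 2 and 0.0701 without trametinib replicate 1, and Foxa1 was at 71.4 and 64.3 CPM in controls and 116 and 84.9 with trametinib (adjusted p = 0.0628, 0.00144 with the block). Hhex, a foregut homeobox factor, went from 88.8 and 80.9 CPM to 17.3 and 17 (log2 fold change -2.31, SE 0.13, adjusted p = 0.000434). Sox9, a factor of distal lung progenitors, went from 106 and 82.5 CPM to 26 and 23.3 (log2 fold change -1.93, SE 0.19, adjusted p = 0.00141), and Klf4, a Krüppel-like factor of differentiated epithelium, from 204 and 205 to 49.7 and 80.8 (log2 fold change -1.65, SE 0.25, adjusted p = 0.00556). Foxp1, a forkhead repressor in lung development, went from 76.4 and 61 CPM to 29.5 and 33.3 (log2 fold change -1.13, SE 0.14, adjusted p = 0.00291). In these 4 genes, as in every called gene, the groups did not overlap, and the direction held without any one library. The list had 9, 6, 5 and 10 calls without control replicate 1, control replicate 2, trametinib replicate 1 and trametinib replicate 2.

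Among intestinal and hepatic markers the calls in the fit of all 6 libraries without the block were falls. Of 10 tested intestinal markers (18 listed), 4 fell and none rose (40% called), with a median of -0.41. With the block 6 fell and 1 rose, against 44.9% of all genes called. Vil1, villin of the brush border, went from 98 and 82.4 CPM to 41.9 and 50.9 (log2 fold change -0.96, SE 0.18, adjusted p = 0.0109), with an adjusted p of 0.0762 without trametinib replicate 1, and Cdhr2, a brush border cadherin, from 337 and 313 to 216 and 184 (log2 fold change -0.70, SE 0.11, adjusted p = 0.00672). The intestinal calls changed when single libraries were left out, and without control replicate 2 they included rises as well as falls. Cdx2, which specifies intestine, was not analysed here. Of 9 tested hepatic markers (18 listed), 2 fell (22.2%, near the 26.7% of all genes), of which Trf, transferrin, went from 1676 and 2459.8 CPM to 769 and 577 (log2 fold change -1.62, SE 0.24, adjusted p = 0.00522). There was 1 hepatic call without control replicate 2 and 1 without trametinib replicate 2. The fall in Trf was clear in both libraries, but 63.5% of its exon bases are shared with another gene on the same strand. Alb, albumin, was at 8.52 and 40.7 CPM in controls and 128 and 13.2 with trametinib, so the groups overlapped.

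Outside the lists, the largest rises included Scnn1b, Scnn1g and Slc4a5. Positions here are those of GENCODE vM21 on GRCm38. Scnn1b (chromosome 7, 121865038 to 121918514) and Scnn1g (chromosome 7, 121734479 to 121768475), the beta and gamma subunits of the epithelial sodium channel, both lie on chromosome 7. Scnn1b went from 0.387 and 0.217 CPM to 49.8 and 35.4 (log2 fold change 7.09, SE 0.36, adjusted p = 0.000379), and Scnn1g from 0.775 and 1.35 to 49.2 and 46.8 (log2 fold change 5.50, SE 0.24, adjusted p = 0.000379). Slc4a5 (chromosome 6, 83219828 to 83304945), a sodium bicarbonate cotransporter, went from 0.484 and 2.0 CPM to 54.8 and 57.7 (log2 fold change 5.52, SE 0.56, adjusted p = 0.00155). All 3 transporters were at about 2 CPM or less in controls and over 35 CPM in each treated library. Trim31 (chromosome 17, 36898118 to 36910214), an E3 ubiquitin ligase, had 1 and 0 counts in controls and 465 and 250 with trametinib. This is a ratio of 637 with a 95% counting interval of 114 to 2.52e+04. The log2 fold change of Trim31 was 9.01, and 8.25 without control replicate 2. Without control replicate 1 its control group is at 0, so the fold cannot be measured. Sec14l3 (chromosome 11, 4064841 to 4077736), a lipid-binding protein, went from 0.145 and 0.596 CPM to 79.4 and 72.6 (log2 fold change 7.70, SE 0.34, adjusted p = 0.000379). Ces1d, a carboxylesterase of lung and liver, went from 0.145 and 3.85 CPM to 69 and 60.4 (log2 fold change 5.06, SE 0.78, adjusted p = 0.00562), and Upk3a, an uroplakin, from 0.533 and 2.0 to 48.5 and 47.8 (log2 fold change 5.27, SE 0.45, adjusted p = 0.001). For some of these genes the fold depends on which control library is used. Without control replicate 1 and without control replicate 2 the log2 fold changes were 6.98 and 9.0 for Sec14l3, 4.80 and 6.87 for Slc4a5, 4.07 and 8.77 for Ces1d, and 4.58 and 6.51 for Upk3a. Each of these calls was kept without either library.

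Among the largest falls outside the lists, Dmbt1 (chromosome 7, 131032053 to 131121630), a secreted scavenger receptor of mucosal surfaces, went from 29.8 and 25.7 CPM to 0.401 and 0.326 (log2 fold change -6.23, SE 0.38, adjusted p = 0.000469). Pthlh (chromosome 6, 147252101 to 147264183), parathyroid hormone-related protein, went from 61.2 and 58.5 CPM to 1.34 and 2.89 (log2 fold change -4.83, SE 0.31, adjusted p = 0.000563), with -5.48 without trametinib replicate 2. Tns4 (chromosome 11, 99065678 to 99089306), a tensin of cell adhesions, went from 82.6 and 89 CPM to 3.21 and 6.39 (log2 fold change -4.16, SE 0.29, adjusted p = 0.000642). Apoe, apolipoprotein E, went from 27.4 and 45.4 CPM to 1.96 and 2.29 (log2 fold change -4.10, SE 0.47, adjusted p = 0.00219). In each of these genes the control libraries were more than 10 times the treated ones. Ivl, involucrin of the squamous envelope, went from 51.7 and 22.5 CPM to 2.67 and 2.19 (log2 fold change -3.93, SE 0.56, adjusted p = 0.00451), with -3.21 without control replicate 1. Cd53 (chromosome 3, 106759921 to 106790149), a tetraspanin of leukocytes, had 300 and 179 counts in controls and 3 and 0 with trametinib, 179-fold lower with a 95% counting interval of 61 to 872. Its 3 treated counts were all in trametinib replicate 1, so without that library the treated group is at 0. Mcpt8 (chromosome 14, 56082166 to 56085273), a protease of basophils, went from 61.6 and 31.1 CPM to 0.356 and 0.233 (log2 fold change -7.26, SE 0.79, adjusted p = 0.00196), and Sh2d1b1 (chromosome 1, 170277320 to 170286769), an adaptor of natural killer cells, from 19.6 and 13.2 to 0.356 and 0.420 (log2 fold change -5.38, SE 0.37, adjusted p = 0.000642). Beside these, Ptprc, the pan-leukocyte antigen CD45, was at 1.79 and 1.08 CPM in controls and 0.223 and 0.187 with trametinib (log2 fold change -2.78, SE 0.75, adjusted p = 0.0356), a call lost without any one of the 4 libraries (adjusted p from 0.0692 to 0.158). Cd68, of macrophages, was at 6.0 and 6.34 CPM in controls and 4.01 and 3.96 with trametinib and was not called (adjusted p = 0.0777, 0.0411 with the block), and Csf1r, the macrophage growth factor receptor, was higher with trametinib at 2.94 and 2.29 CPM against 0.484 and 0.379. Of the other 4 of 7 blood cell markers, Hba-a1 had too few counts to be tested, and Cd3e, Cd79a and Hbb-bs were not analysed here. The summed level of the markers measured was 8.07 to 8.38 CPM in controls and 6.72 to 7.21 CPM with trametinib, and the part of blood cells in the falls of Cd53, Mcpt8 and Sh2d1b1 was not tested.

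The markers of other cell types that could be measured were low throughout. Of 7 fibroblast markers only Col1a1 was analysed here, at 0.291 and 0.812 CPM in controls and 1.69 and 0.839 with trametinib. Of 6 endothelial markers only Vwf was tested, from 2.47 and 3.74 CPM to 7.70 and 9.84 (log2 fold change 1.5, SE 0.34, adjusted p = 0.0197). Pecam1 had too few counts to be tested, and the other 4, among them Cdh5, were not analysed here. The call of Vwf was lost without control replicate 1, trametinib replicate 1 or trametinib replicate 2, where the list had 0 calls. Of 5 neuroendocrine markers only Syp was analysed here, at 0.581 and 0.542 CPM in controls and 0.445 and 0.280 with trametinib. Epcam, the epithelial adhesion molecule, was at 464 and 451 CPM in controls and 366 and 319.7 with trametinib (adjusted p = 0.0572, 0.00244 with the block), so this epithelial marker was expressed in each library. Of 11 tested genes that tell epithelial from mesenchymal cells, 2 rose and 1 fell (27.3%, against 26.7% of all genes, or 44.9% with the block). Cdh1, E-cadherin, went from 1201 and 1113 CPM to 1770.2 and 1636 (log2 fold change 0.56, SE 0.12, adjusted p = 0.0183), with an adjusted p of 0.0576, 0.0834 and 0.0924 without control replicate 1, control replicate 2 and trametinib replicate 1. Vim, vimentin, fell from 30.5 and 72.7 CPM to 4.67 and 10.3 (log2 fold change -2.78, SE 0.54, adjusted p = 0.0118). Its log2 fold change was -2.0 without control replicate 2 and -3.46 without trametinib replicate 2, and the adjusted p was 0.0713 without trametinib replicate 1. The other riser was Snai1, under 1 CPM in the control and trametinib libraries. With the block 3 of these 11 genes were higher and 3 lower, and leaving out control replicate 1, control replicate 2, trametinib replicate 1 and trametinib replicate 2 gave 1, 1, 0 and 2 calls.

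Cell death and survival genes of the BCL2 family changed in a mixed way. Of 14 tested, 5 rose, 4 fell and 5 were not called. Bik and Bmf, which encode BH3-only proteins that promote death, rose from 1.02 and 1.41 CPM to 13.2 and 8.77 (log2 fold change 3.18, SE 0.32, adjusted p = 0.00151) and from 40.1 and 61.9 to 190.2 and 159 (log2 fold change 1.78, SE 0.21, adjusted p = 0.00228). Bcl2l11, which encodes the BH3-only protein BIM, was at 105 and 134 CPM in controls and 93.9 and 117 with trametinib and was not called (adjusted p = 0.473). In Bcl2l11 the groups overlapped. Mcl1, a survival gene, rose from 247 and 234 CPM to 384 and 351 (log2 fold change 0.61, SE 0.10, adjusted p = 0.00723), with an adjusted p of 0.0539 without trametinib replicate 1. Bok, a pore-forming member, fell from 124 and 136 CPM to 28.6 and 57.7 (log2 fold change -1.59, SE 0.29, adjusted p = 0.00991), with -2.19 without trametinib replicate 2. The number called in the family was 8, 5, 3 and 7 without control replicate 1, control replicate 2, trametinib replicate 1 and trametinib replicate 2.

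Insulin signalling and FoxO target genes moved in both directions, with 5 of 15 higher and 2 lower. Sesn3, a stress-induced FoxO target, rose from 46.9 and 45 CPM to 139.8 and 123 (log2 fold change 1.52, SE 0.13, adjusted p = 0.00104). Pik3r1, the regulatory subunit of PI3 kinase, rose from 44.1 and 54 CPM to 91.8 and 88.1 (log2 fold change 0.88, SE 0.14, adjusted p = 0.00578), and Fbxo32, the FoxO target atrogin, from 7.55 and 9.15 to 20.6 and 16.6 (log2 fold change 1.16, SE 0.18, adjusted p = 0.0063). Irs2, an insulin receptor substrate, fell from 66.2 and 73.6 CPM to 25.7 and 33.8 (log2 fold change -1.23, SE 0.15, adjusted p = 0.00289). None of these 4 calls was lost without any one library. With the block 6 of the 15 were higher and 5 lower, against 44.9% of all genes called.

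Genes of antigen presentation went both ways, and some of the interferon response rose. Of 10 tested genes of MHC class I presentation, 2 rose and 1 fell (30%, near the 26.7% of all genes). With the block 3 rose and 4 fell, against 44.9% of all genes called. B2m, the light chain of class I molecules, was at 10.7 and 6.12 CPM in controls and 27.5 and 20.2 with trametinib (log2 fold change 1.5, SE 0.33, adjusted p = 0.0181), with an adjusted p of 0.0682 without control replicate 2 and 0.101 without trametinib replicate 1. Calr, the chaperone calreticulin, fell from 1287 and 1328 CPM to 654 and 619.9 (log2 fold change -1.04, SE 0.11, adjusted p = 0.00155). The class I heavy chain gene H2-K1 was at 465 and 518 CPM in controls and 293 and 420.2 with trametinib and was not called (adjusted p = 0.135, 0.0029 with the block). The class I list had 3, 2, 1 and 4 calls without control replicate 1, control replicate 2, trametinib replicate 1 and trametinib replicate 2. Cd74, the class II invariant chain, rose from 1.40 and 1.52 CPM to 8.46 and 5.55 (log2 fold change 2.26, SE 0.36, adjusted p = 0.00613), while the class II genes H2-Aa, H2-Ab1 and H2-Eb1 were not analysed here. Of 15 tested interferon-stimulated genes, 6 rose and none fell, with a median of 0.79. Irf1, an interferon regulatory factor, rose from 24.5 and 21.1 CPM to 43.2 and 37.4 (log2 fold change 0.82, SE 0.14, adjusted p = 0.0071), with an adjusted p of 0.0523 without trametinib replicate 1. The interferon list had 4, 2, 4 and 2 calls when the 4 libraries were left out in the order above, and 8 of its 15 tested members were under 10 CPM in each library.

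Among 12 tested chemokines and cytokines 3 fell and 1 rose (33.3%, against 26.7% of all genes), and with the block 6 fell and 3 rose (against 44.9% called). Il33, an alarmin of barrier epithelium, fell from 556 and 491 CPM to 94.6 and 80.1 (log2 fold change -2.58, SE 0.13, adjusted p = 0.000379). Lif, a cytokine of the IL6 family, fell from 133 and 168 CPM to 31.9 and 61.7 (log2 fold change -1.69, SE 0.29, adjusted p = 0.00804). The fall in both was larger than the gap between replicates. Cxcl16, which exists as a membrane-bound chemokine, rose from 28.9 and 16.7 CPM to 73.4 and 51.4 (log2 fold change 1.45, SE 0.35, adjusted p = 0.0239), with an adjusted p of 0.0925 without control replicate 2 and 0.125 without trametinib replicate 1. The list had 3, 3, 2 and 4 calls without control replicate 1, control replicate 2, trametinib replicate 1 and trametinib replicate 2.

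Genes of the NOTCH and WNT pathways were called about as often as all genes (26.7%) without the block. Of 8 tested NOTCH genes 2 rose (25%). Dll4, a NOTCH ligand, went from 3.97 and 3.74 CPM to 46 and 25.1 (log2 fold change 3.20, SE 0.41, adjusted p = 0.00329), and the receptor gene Notch2 from 100.2 and 94.2 to 183 and 157 (log2 fold change 0.81, SE 0.11, adjusted p = 0.00367). Hes1, the direct target of NOTCH, was at 105 and 116 CPM in controls and 126 and 132 with trametinib and was not called (adjusted p = 0.129, 0.0277 with the block). The 2 risers were well above control in both libraries, and 3 genes were higher and 2 lower with the block (against 44.9% of all genes called). Of 9 tested WNT genes 1 rose and 1 fell (22.2%). Axin2, a WNT target and inhibitor, fell from 17 and 9.75 CPM to 4.59 and 5.22 (log2 fold change -1.45, SE 0.30, adjusted p = 0.015), a call lost without control replicate 1 (adjusted p = 0.0552) or trametinib replicate 1 (0.0926). Rnf43, which removes WNT receptors from the membrane, rose from 34.9 and 30.5 CPM to 44 and 46.8 (log2 fold change 0.47, SE 0.12, adjusted p = 0.0271), a call lost without control replicate 2 (adjusted p = 0.112), trametinib replicate 1 (0.0953) or trametinib replicate 2 (0.111). With the block 3 WNT genes were higher and 3 lower. Of 10 tested YAP and TEAD targets 3 rose and 2 fell (50%). Amotl2 and Ajuba, junctional regulators of the Hippo pathway, rose from 34.2 and 29.1 CPM to 79.95 and 76.2 (log2 fold change 1.30, SE 0.12, adjusted p = 0.00124) and from 80.6 and 64.2 to 183 and 158 (log2 fold change 1.24, SE 0.17, adjusted p = 0.00404). The classic targets Ccn1, at 54.6 and 25.5 CPM in controls and 69.7 and 96.7 with trametinib, and Ccn2, at 269.7 and 165 in controls and 248 and 248 with trametinib, were not called, although with the block the adjusted p of Ccn1 was 0.0144. The number called was 1, 2, 0 and 3 for the WNT genes and 3, 2, 2 and 4 for the YAP and TEAD targets without control replicate 1, control replicate 2, trametinib replicate 1 and trametinib replicate 2.

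The comparator MRTX1133 was given to the same organoids for the same time, at 20 nM against 10 nM trametinib, so doses differ and the values are set side by side. Both comparisons use the same 2 control libraries, and a likeness between their changes is therefore no independent result. MRTX1133 changed 913 genes (6.27%), 438 higher and 475 lower, and with the replicate block 3515 (24.1%). DESeq2 called 1593. The number was 201 and 349 without control replicate 1 and 2 and 138 and 168 without MRTX1133 replicate 1 and 2. In the ERK list MRTX1133 lowered 7 of 20 members and raised 1, with 15 called under the block, with a median of -0.64 against -1.55 with trametinib. Dusp6 was at 114 and 123 CPM with MRTX1133 (log2 fold change -1.20, adjusted p = 0.0248), Etv4 at 22.8 and 19.6 CPM (-1.35, adjusted p = 0.0175) and Fosl1 at 14.1 and 10.7 CPM (-2.07, adjusted p = 0.0084). In all 3 the MRTX1133 libraries lay between the control and the trametinib libraries. Egr1 was at 19.1 and 13.4 CPM with MRTX1133, within reach of control at 19.9 and 16.1 (log2 fold change -0.14, adjusted p = 0.771). Epha4 was at 128 and 110.1 CPM with MRTX1133.

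The direct test of MRTX1133 against trametinib called 0 genes (0%) by edgeR's quasi-likelihood test, where the lowest adjusted p was 0.0648. Before adjustment, 2357 genes had a p below 0.05. It called 0 to 2 genes when any one library was left out. The same contrast gave 675 genes with DESeq2 and 2050 (14.1%) with the replicate block, 1128 of them higher with MRTX1133 (7.75%) and 922 lower (6.33%), so whether single genes differ between the inhibitors depends on the test. Differences below are MRTX1133 minus trametinib on the log2 scale. Dusp6 differed by 1.6 (SE 0.21, adjusted p = 0.0759, 0.000616 with the block), Fosl1 by 2.27 (SE 0.25, adjusted p = 0.0648, 0.00158 with the block) and Egr1 by 2.75 (SE 0.26, adjusted p = 0.0648, 0.000924 with the block). In the ERK list 13 of 20 members were higher with MRTX1133 and none lower under the block, with a median difference of 0.73.

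Mitotic genes showed the widest gap between the inhibitors among the lists with at least 20 tested members. Their sum was 1786 and 2885 CPM with MRTX1133, against 798 and 1393 with trametinib. MRTX1133 had 0 of 20 mitotic genes called against control, with a median of -0.30, and 11 with the block. The median difference between the inhibitors was 1.11, and all 20 genes were higher with MRTX1133 under the block. In the shorter list of 8 tested airway markers the median difference was larger in size, at -1.22. Ccnb1 was at 51.9 and 74.1 CPM with MRTX1133 and differed by 1.18 (SE 0.23, adjusted p = 0.116, 0.00105 with the block). Cholesterol genes had 3 of 21 called with MRTX1133, all lower and among them Sc5d and Msmo1, and 17 with the block. Their median difference was 0.60, and 19 were higher with MRTX1133 under the block. Sqle was at 307 and 367 CPM with MRTX1133 and differed by 0.60 (SE 0.20, adjusted p = 0.226, 0.00277 with the block). Lysosomal genes went the other way, with 0 of 27 called with MRTX1133 against control (6 with the block), a median difference of -0.34, and 13 lower with MRTX1133 under the block.

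Some identity genes also lay between control and trametinib with MRTX1133, among them Gkn2, Cym, Ager and Cyp2f2, while others did not. Muc5b had a log2 fold change of -0.85 with MRTX1133 and -0.72 with trametinib, and Muc5ac -1.87 and -1.69. Gkn2 was at 45.3 and 64.3 CPM with MRTX1133 (log2 fold change -3.70, adjusted p = 0.00725) and Cym at 2116 and 743 CPM (6.31, adjusted p = 0.00946). Ager was at 355 and 661 CPM (2.85, adjusted p = 0.0635, 0.000354 with the block) and Cyp2f2 at 74.5 and 42.2 CPM (5.93, adjusted p = 0.0102). The difference between inhibitors was not called in the unblocked fit. It was 1.18 (SE 0.36, adjusted p = 0.203, 0.0287 with the block) for Gkn2, -1.82 (SE 0.59, adjusted p = 0.218, 0.000616) for Cym, -1.02 (SE 0.65, adjusted p = 0.497, 0.0386) for Ager and -1.62 (SE 0.50, adjusted p = 0.204, 0.00755) for Cyp2f2. The ATF4 targets had a median of -0.76 with MRTX1133 and 6 of 15 called lower (13 called with the block), beside a median of -0.76 and 9 called with trametinib (14 with the block). Under the block 7 of the 15 were higher with MRTX1133 than with trametinib and none lower. Slc7a11 was at 74.9 and 86.7 CPM with MRTX1133 (log2 fold change -1.96, adjusted p = 0.00365), and the difference from trametinib was 1.01 (adjusted p = 0.0819, 0.000616 with the block).

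**Figure D4:**
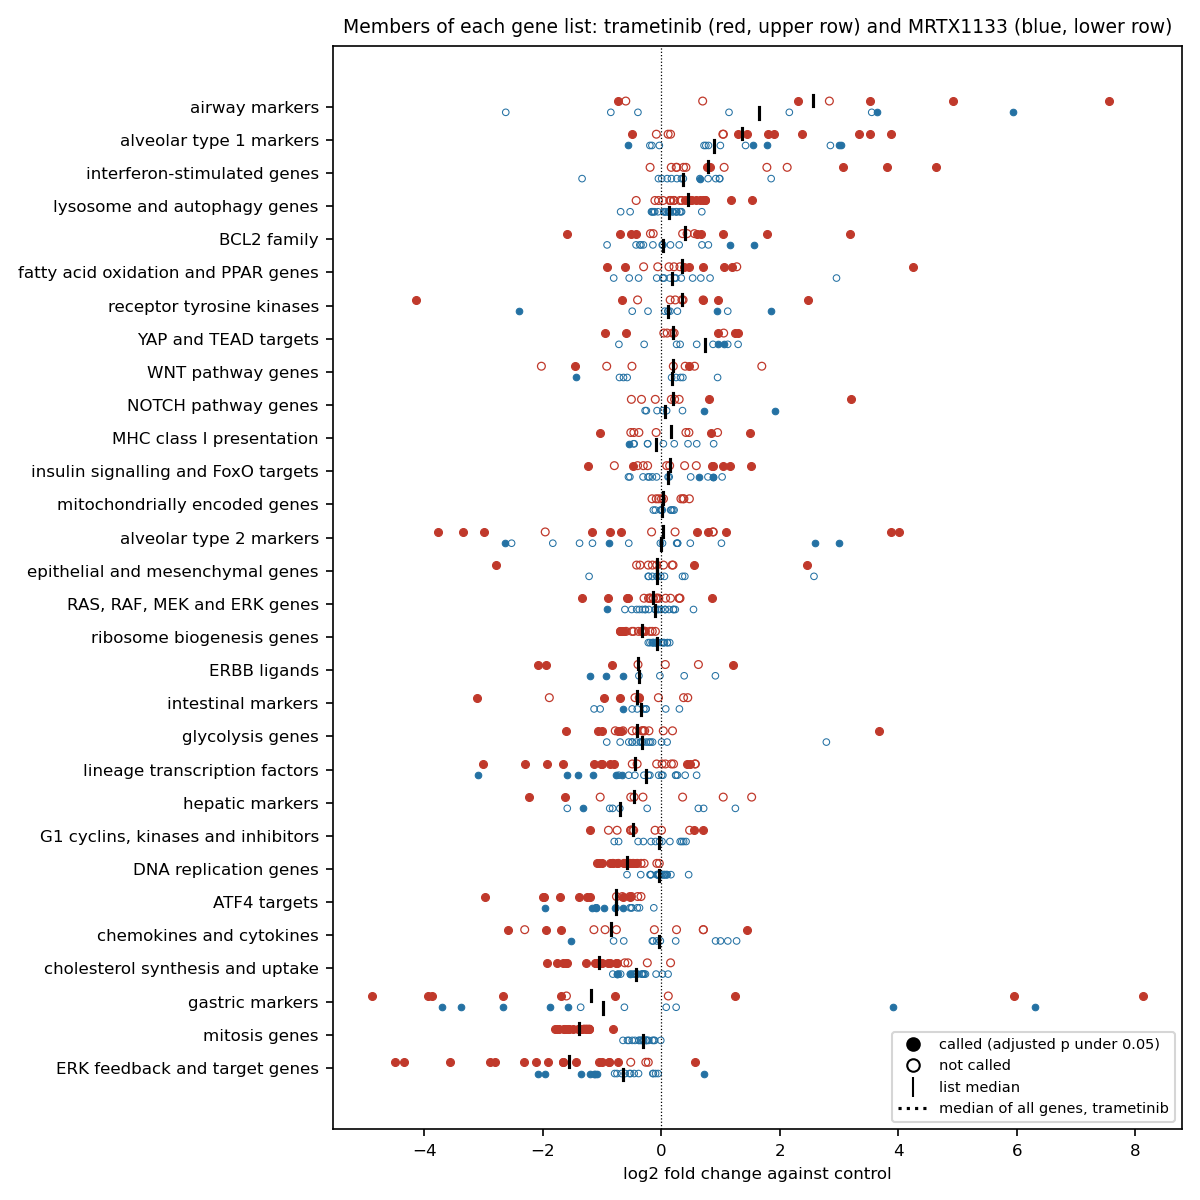
Log2 fold change against control (horizontal axis) of each tested member of 30 gene lists (vertical axis), with trametinib in red above and MRTX1133 in blue below, filled points for called genes and a bar for the list median. The mitosis list has its medians furthest apart among lists with at least 20 tested members, at -1.39 with trametinib and -0.30 with MRTX1133, and Pga5 is not drawn because both control libraries had 0 counts.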

How the data were processed

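Poly(A) RNA of 6 libraries was sequenced from strand-specific libraries read from both ends, per the labels' protocols. The authors deposited unnormalized read counts for each Ensembl gene. Per the submitters' processing notes, cutadapt 3.5, STAR 2.7.6a and featureCounts 1.6.3 were used and the builds mm10, mm39 and hg38 were named without a role. The strand setting of the counting is not given in the sources used here. Counts were fitted in R 4.3.3 with edgeR 4.0.16 (filterByExpr, TMM, quasi-likelihood F-test on group means of all 6 libraries, Benjamini-Hochberg adjustment, threshold 0.05), and SE is the log2 fold change over the square root of F. The biological coefficient of variation was 0.160. The fit was tested on simulated data, with and without the replicate number as a block. The share of unchanged genes among the calls stayed under the threshold where genes followed the common trend of spread. In both fits it was well above the threshold where each gene had its own spread. An adjusted p close to the threshold is therefore weaker than its value. The simulated libraries held no deviation shared by same-numbered libraries, unlike the real ones. Total counts were 19692517 to 26064130 per library, and intervals and floors cover counting error only. Replicate numbers come from the sample titles. Deviations of same-numbered libraries correlated across 14555 genes at 0.329 between control and trametinib, 0.503 between control and MRTX1133 and 0.557 between trametinib and MRTX1133, so the numbers were taken to pair the libraries, and a fit with the number as a block was an alternative. The others were RLE and upper-quartile scaling, DESeq2 1.42.0, other count filters, a fit of only the 2 groups compared, a 2-fold limit, robust spread estimates and leaving out each library. With a library left out, an arm holds 1 library, which is assumed to vary like the others. Gene lists were written from general knowledge. The libraries compared and the lists were chosen with earlier results of these data known. The rule named the first 3 genes of each list, up to 4 called members with the largest change and a mean of 10 CPM or more in the group that was higher, and the 15 largest rises and falls with that mean and no overlap of groups, and Foxa1, Foxa2, Hnf4a and Nkx2-1 as checks of the labels, of which a selection is printed. Aqp5, Ctse, Dhcr7, Epha2, Epha4, Muc5ac, Pga5, Pgc, Spred1, Spred3, Srebf1, Stard4, Vwf and genes named without values fall outside it and were chosen after their values were seen. Gene positions matched 16533 of 16553 genes to GENCODE vM21 on GRCm38, and promoters are RefSeq windows on GRCm38.p6, held for 10409 of the tested genes. Some genes and 1 allele of the organoids are not reported here.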

Additional observations from a re-analysis of the deposited data

How the results depend on the processing

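The trametinib comparison, with 3880 genes called, gave 3856 with RLE scaling, 3925 with upper-quartile scaling and 4243 with DESeq2. It gave 3801 with no count filter, 3602 with at least 10 counts in every library, 3461 with only the 2 groups compared and 3912 with robust spread estimates, an alternative added after seeing the data. With the replicate block it gave 6540 and lost none of the 3880, and with a 2-fold limit 1768. Leaving out 1 library gave 1336 to 3461. The MRTX1133 comparison, with 913 genes, gave 1593 with DESeq2, 3515 with the replicate block, 417 with a 2-fold limit and 138 to 629 with 1 library left out. The contrast of MRTX1133 with trametinib, with 0 genes, gave 675 with DESeq2, 2050 with the block, 1 with only the 2 groups compared and 0 to 2 with 1 library left out. The cause of these differences was not tested. Of the 191 tested genes that the naming rule picked, 144 were called. The block changed the call of 26, all gained, DESeq2 of 8, all gained, and RLE and upper-quartile scaling of 1 each, Muc5b, which was lost. The fit of only the 2 groups compared lost 3, among them Ldha, and gained Mki67. Leaving out trametinib replicate 1 lost 52 of the calls, control replicate 2 lost 38, control replicate 1 lost 20 and trametinib replicate 2 lost 14, and these gained 1, 0, 2 and 5. None of those called turned its direction under any of these alternatives. The list medians moved in 32 of 418 values and changed sign for the alveolar type 2 markers (-0.41 with at least 10 counts in every library), MHC class I (-0.17 without control replicate 1) and MHC class II (-0.05 without trametinib replicate 2). With 2 libraries a group, changes of low genes below a few counts cannot be resolved. A planned comparison with 3311 cells was not analysed here, because its columns name no cell line.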

Other observations

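In some genes the replicate libraries of a group lay far apart. The gene mt-Co1, which encodes a subunit of cytochrome c oxidase in the mitochondrial genome, was at 13747 and 6678 CPM in controls, 11139 and 7192 with trametinib and 12453 and 6605 with MRTX1133. Each replicate 1 library was higher than each replicate 2 library. None of the 9 mitochondrially encoded genes tested was called with trametinib, and 4 were higher with the replicate block. Alb, albumin, was at 8.52 and 40.7 CPM in controls, 128 and 13.2 with trametinib and 85 and 31.5 with MRTX1133, and the order of the replicates in the control group was opposite to that in the inhibitor groups. Of genes with at least 10 CPM, 114 of 9245 had control replicates at least 2-fold apart, 82 of 9333 had trametinib replicates that far apart, and 82 of 9368 had MRTX1133 replicates that far apart.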
